A study of Mus musculus with 14 samples.

Results

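Cytochrome P450 genes were taken as the protein-coding genes whose symbol is Cyp followed by a digit, leaving out the 4 bile acid enzyme genes Cyp7a1, Cyp7b1, Cyp8b1 and Cyp27a1. This gave 95 of 21887 protein-coding genes on chromosomes 1 to 19, X and Y, in 36 subfamilies, 26 of which have 1 member. Each gene was measured over its body plus 5 kb each side, in 6 lists of enriched regions on mm10. The libraries were chromatin immunoprecipitation sequencing of C57BL/6 mouse liver with antibodies against H3K4me1, H3K4me2 and LSD1, from wild-type mice (WT) and from mice with inducible YAP (YAP). H3K4me1 and H3K4me2 stand for histone H3 with 1 or 2 methyl groups on lysine 4, marks of enhancers and promoters. LSD1 is the enzyme that can remove either. YAP is a transcriptional co-activator restrained by the Hippo pathway. Doxycycline at 50 mg/L in the drinking water for 10 days induced YAP. The labels carry this treatment on every sample, do not say whether WT mice drank it, and give neither sex, nor age, nor the promoter that drives the transgene. Each antibody was used on 2 replicates per genotype, and 1 deposited list stands for both, so no spread between replicates, no error and no p-value can be given, and read depth is unknown. All statements below describe these lists.

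Cytochrome P450 enzymes are heme proteins, most of them in the endoplasmic reticulum, that use molecular oxygen and electrons from the reductase Por to oxidise their substrates. Families 1 to 3 act mainly on drugs, toxins and steroids, family 4 and several Cyp2j enzymes on fatty acids, and other families on sterols, steroid hormones, vitamin D and retinoids. The liver expresses many of them at high levels. Enzymes such as Cyp2e1 and Cyp1a2 are made mostly in hepatocytes around the central vein, and several Cyp2b, Cyp3a and Cyp2d genes differ between male and female mouse livers. Many rodent P450 genes lie in tandem clusters, and some of these genes are near-identical copies, in which short reads are hard to place.

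The H3K4me2 lists showed the clearest difference at these genes. Cyp2e1, which oxidises ethanol and paracetamol, and Cyp2c29, an arachidonic acid epoxygenase, had long H3K4me2 regions in WT and none listed in YAP. Cyp2a22 and Cyp2b9 had H3K4me2 within 1 kb of the start site in YAP only. The promoters of 7 members are printed here because the largest differences fell at or beside them, and because Cyp2b9 and Cyp2b13 show how alike paralogs can be. They come from RefSeq on GRCm38.p6, whose coordinates are those of mm10, and hold the 250 bases before the start site, 5′ to 3′ on the gene's strand. They lie at chr7:140763569-140763818 (+) for Cyp2e1, chr19:39286835-39287084 (+) for Cyp2c29, chr9:57683656-57683905 (-) for Cyp1a2, chr15:82764123-82764372 (-) for Cyp2d40, chr7:26939387-26939636 (-) for Cyp2a22, chr7:26173159-26173408 (+) for Cyp2b9 and chr7:26061245-26061494 (+) for Cyp2b13. Capitals mark matches, on either strand, to the core promoter box TATAAA, the C/EBP motif TTGCNNAA, the nuclear receptor motif AGGTCA, the Ah receptor core GCGTG or the motif GGAATG of TEAD, the factor family that YAP binds.
Cyp2e1: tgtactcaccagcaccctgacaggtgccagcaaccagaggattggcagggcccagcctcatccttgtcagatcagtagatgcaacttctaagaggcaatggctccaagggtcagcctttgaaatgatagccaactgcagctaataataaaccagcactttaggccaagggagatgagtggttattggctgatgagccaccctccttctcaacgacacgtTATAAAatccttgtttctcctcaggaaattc
Cyp2c29: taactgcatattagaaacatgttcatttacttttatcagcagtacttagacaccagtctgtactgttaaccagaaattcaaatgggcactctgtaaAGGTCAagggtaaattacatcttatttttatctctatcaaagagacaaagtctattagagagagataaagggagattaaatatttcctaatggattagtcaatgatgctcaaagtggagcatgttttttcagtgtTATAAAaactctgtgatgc
Cyp1a2: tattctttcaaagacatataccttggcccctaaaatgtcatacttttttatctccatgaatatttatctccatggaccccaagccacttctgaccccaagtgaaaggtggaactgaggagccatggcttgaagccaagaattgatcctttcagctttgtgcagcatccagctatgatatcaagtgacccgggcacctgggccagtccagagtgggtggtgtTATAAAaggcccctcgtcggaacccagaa
Cyp2d40: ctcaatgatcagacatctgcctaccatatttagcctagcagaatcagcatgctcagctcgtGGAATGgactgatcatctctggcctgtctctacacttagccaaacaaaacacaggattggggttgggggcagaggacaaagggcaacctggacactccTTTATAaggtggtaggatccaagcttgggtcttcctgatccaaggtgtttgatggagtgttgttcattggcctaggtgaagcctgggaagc
Cyp2a22: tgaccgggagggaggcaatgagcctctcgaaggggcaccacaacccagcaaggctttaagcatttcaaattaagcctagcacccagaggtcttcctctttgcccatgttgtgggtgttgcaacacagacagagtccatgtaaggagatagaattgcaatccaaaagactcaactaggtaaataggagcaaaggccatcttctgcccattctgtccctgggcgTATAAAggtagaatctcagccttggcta
Cyp2b9: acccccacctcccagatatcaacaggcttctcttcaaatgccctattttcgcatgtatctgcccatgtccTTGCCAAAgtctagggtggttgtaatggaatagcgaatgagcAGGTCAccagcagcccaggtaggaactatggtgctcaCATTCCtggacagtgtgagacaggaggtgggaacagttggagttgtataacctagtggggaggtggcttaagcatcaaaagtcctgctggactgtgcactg
Cyp2b13: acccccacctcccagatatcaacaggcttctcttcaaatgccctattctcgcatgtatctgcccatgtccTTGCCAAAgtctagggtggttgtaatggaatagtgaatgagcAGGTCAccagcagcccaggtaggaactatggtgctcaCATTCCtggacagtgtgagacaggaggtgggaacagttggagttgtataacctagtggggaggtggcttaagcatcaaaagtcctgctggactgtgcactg

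An H3K4me2 region covered at least 1 base at 57 of the 95 P450 genes (60.0%), against 68.1% of all protein-coding genes. Of these 57 genes, 41 (71.9%) had fewer covered bases in YAP than in WT, against 59.1% of the 14915 covered genes in all. To compare genotypes, 500 bases were added to both values before the ratio was taken, and a gene was counted past 2-fold where the log2 of that ratio reached 1 in either direction. This log2 difference understates changes of genes with few covered bases. At 6 of the 57 covered genes (Cyp21a1, Cyp26c1, Cyp2c55, Cyp2t4, Cyp2w1 and Cyp4a14) all covered bases lay in the flanks, where they may belong to a neighbour. Fewer bases by at least 2-fold were found at 12 of 57 P450 genes (21.1%), where 2.25% of all covered genes passed. More bases by at least 2-fold were found at 3 of 57 (5.26%), where 3.34% of all passed. Among genes with 1000 or more covered bases in WT, 11 of 44 P450 genes had at least 2-fold fewer in YAP, against 1.96% of all genes. That filter uses the WT value alone, for P450 genes and all genes alike. It therefore favours falls and drops the 3 P450 genes with more, so it adds no support of its own. Without any added bases, 8 of 57 P450 genes had H3K4me2 in WT only and 3 in YAP only, against 2.11% and 3.79% of all covered genes. The median log2 difference was -0.31 over the 57 P450 genes, with quartiles at -0.76 and 0.12, and -0.06 over all covered genes, with quartiles at -0.25 and 0.14. Each base counted once, P450 windows held 158184 covered bases in 166 regions in the WT list and 109526 in 130 regions in the YAP list, a YAP to WT ratio of 0.692. The complete H3K4me2 lists hold 54219 regions in WT and 51676 in YAP.

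**Figure D1:**
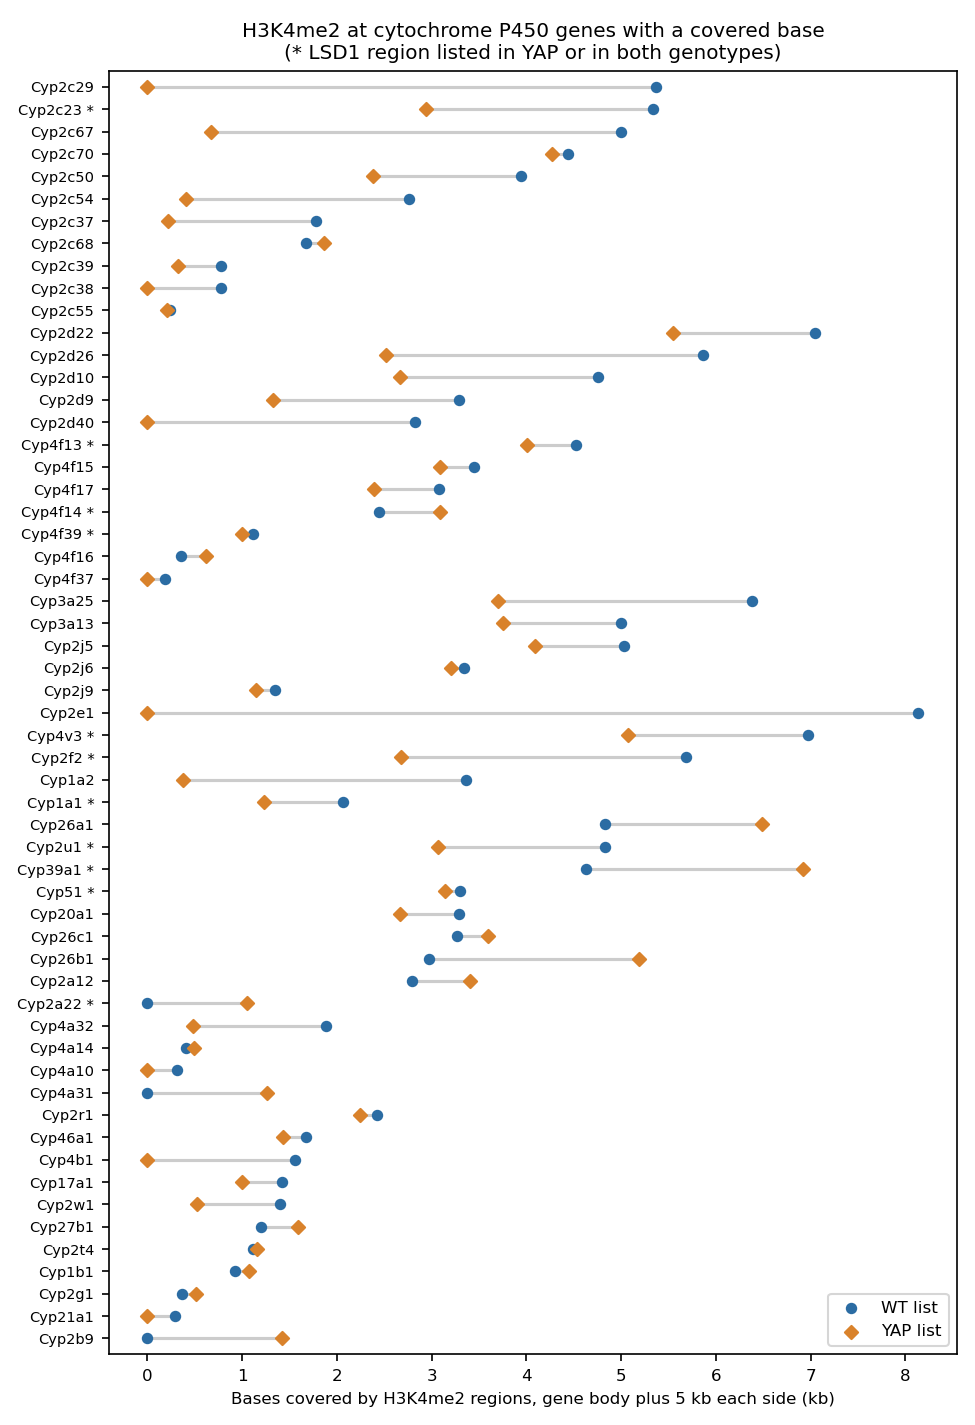
H3K4me2-covered bases (kb, horizontal axis) in the WT list (blue circles) and the YAP list (orange diamonds) for each of the 57 P450 genes with a covered base, grouped by subfamily, with an asterisk where an LSD1 region was listed in YAP. Cyp2e1 runs from 8139 bases in WT to 0 in YAP, while Cyp2b9, Cyp4a31 and Cyp2a22 start at 0 in WT.

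**Figure D2:**
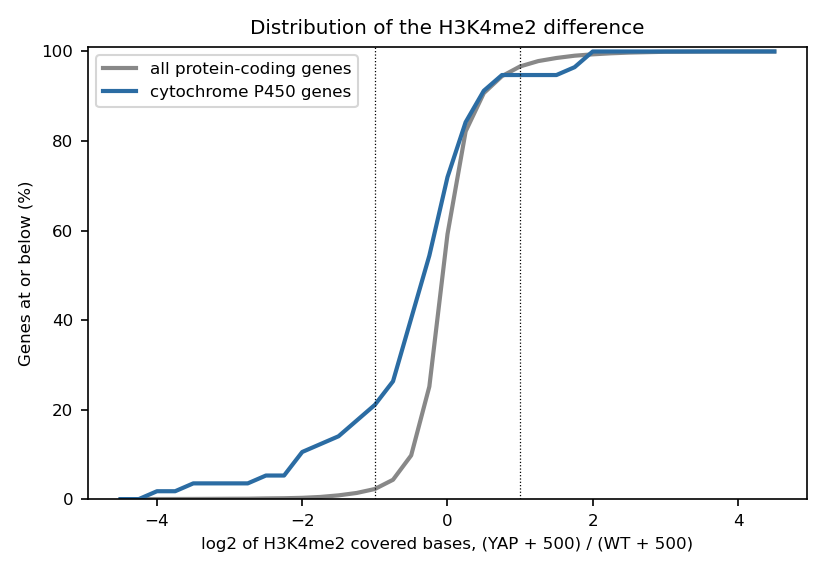
Cumulative share of genes (%, vertical axis) at or below each log2 difference in H3K4me2-covered bases, YAP against WT with 500 bases added, for 57 P450 genes (blue) and 14915 genes (grey), with dotted lines at 2-fold. At the left dotted line the P450 curve stands at 21.1% and the curve of all genes at 2.25%.

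Genes of families 1 to 3 without the Cyp2j genes, Cyp2u1 and Cyp2r1, which are described with fatty acids and vitamin D below, form the group of drug, toxin and steroid metabolism and held 10 of the 12 P450 genes with at least 2-fold fewer covered bases. Of 51 genes in this group 29 were covered, 22 with fewer bases in YAP and 7 with more, and their median log2 difference was -0.71. Cyp2e1 had 8139 covered bases in 5 regions in WT and none in YAP. It ranked 1st of the 14915 covered genes for its fall on the log2 scale. Its longest WT region, chr7:140763924-140768863, was 4940 bp long, lay inside the gene just past the start site, and stood at percentile 72.9 of its list by the authors' score. A further WT region of 1487 bp lay upstream, at chr7:140758934-140760420, and this too had no counterpart in YAP. Neighbours here and below are genes outside the 95 with H3K4me2 whose windows do not touch that of the P450 gene, so closer genes were skipped. On the higher side this neighbour was Zfp941 at 32.5 kb, with 1374 bases in WT and 1471 in YAP. On the lower side it was Mtg1 at 613 kb, with 1597 and 1419. The difference at Cyp2e1 was not shared by these neighbours. With 10 kb each side of Cyp2e1 its log2 difference was -4.59, against -4.11 with 5 kb, so the fall was larger in the wider window.

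Cyp1a2, the caffeine-metabolising enzyme, had 3364 covered bases in 2 regions in WT and 380 in 1 region in YAP, a log2 difference of -2.13. In WT a 1605 bp region, chr9:57682306-57683910, spanned its start site and reached over the promoter printed above, and in YAP a 380 bp region, chr9:57683315-57683694, remained there. The second WT region, chr9:57680421-57682179 inside the gene, was listed in WT only. Cyp1a1, its neighbour and the classical target of the Ah receptor, had 2063 bases in WT and 1234 in YAP, a log2 difference of -0.56. The 2 genes share part of their windows, and together they held 4444 bases in WT against 1234 in YAP. Cyp1b1, on another chromosome, had 921 and 1069 bases. The neighbours of Cyp1a2, Csk (8392 and 7940 bases) and Edc3 (6153 and 4270 bases), stayed within 2-fold.

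The 15 Cyp2c genes, which include arachidonic acid epoxygenases, held 31332 covered bases in 30 WT regions and 13277 in 23 YAP regions, a ratio of 0.424. Of 11 covered Cyp2c genes, 10 had fewer bases in YAP and 5 of these passed 2-fold. Cyp2c29 had 5370 bases in 6 regions in WT and none in YAP, and ranked 5th of all covered genes for its fall. Its longest WT region, chr19:39287125-39289093, was 1969 bp long and lay just past the start site. Cyp2c67 had 4995 bases in WT and 670 in YAP. Its WT region chr19:39644885-39649044 of 4160 bp overlapped a YAP region of 670 bp. Cyp2c54 (2766 and 402 bases) and Cyp2c37 (1783 and 213 bases) were also past 2-fold, and both are among the genes of the pericentral list below. Cyp2c38 had 777 bases in WT and none in YAP. Those bases also lie inside the bounds of Cyp2c39, which had 777 and 324 bases, so they cannot be given to one of the 2 genes.

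Not every Cyp2c gene differed. Cyp2c70, which makes muricholic acids, had 4442 bases in WT and 4270 in YAP, a log2 difference of -0.05. Cyp2c68 had 1676 and 1866 bases and was the 1 covered Cyp2c gene with more in YAP, but over the gene body alone it had 1676 and 1510, so its direction rests on a flanking YAP region of 356 bp. Cyp2c50 (3947 and 2386 bases) and Cyp2c23 (5342 and 2943 bases) had fewer in YAP but stayed within 2-fold. Cyp2c55 held 234 and 203 bases, all in its flanks. Cyp2c40, Cyp2c65, Cyp2c66 and Cyp2c69 had none in either list.

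The 8 Cyp2d genes showed the same direction throughout, with 5 of 5 covered genes lower in YAP. Together they had 23772 bases in 26 WT regions and 12067 in 15 YAP regions, a ratio of 0.508. Cyp2d40 had 2821 bases in WT and none in YAP, and ranked 14th of all covered genes for its fall. Its WT regions included chr15:82764144-82765409, which holds most of the promoter printed above, and chr15:82762467-82763703 inside the gene. Cyp2d26 had 5863 bases in 10 WT regions and 2523 in 3 YAP regions. Its 3 YAP regions all overlapped WT regions around the gene's first part, and the WT regions farther downstream were not listed in YAP. Cyp2d9, a male-predominant steroid hydroxylase, had 3288 and 1323 bases, a log2 difference of -1.06 that lay just past the 2-fold line. Cyp2d10 (4751 and 2668 bases) and Cyp2d22 (7049 and 5553 bases) stayed within it. Tcf20, the neighbour of Cyp2d26 on the higher side, had 4313 and 4291 bases.

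Other genes of this group stood near the 2-fold line or moved little. Cyp2f2, which bioactivates naphthalene and is made in periportal hepatocytes, had 5680 bases in WT and 2678 in YAP, a log2 difference of -0.96. It was the first gene short of the line, followed by Cyp2w1 (1397 and 527 bases, -0.89), whose covered bases all lay in the flank within the neighbouring gene 3110082I17Rik. Of the 9 Cyp3a genes, whose products clear many drugs, 2 were covered. Cyp3a25 had 6382 and 3699 bases and Cyp3a13 had 4999 and 3756, so both had fewer in YAP without passing 2-fold. Cyp3a11, an abundant hepatic member of this subfamily, had no H3K4me2 region in either list.

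The 3 P450 genes past 2-fold in the other direction all had 0 covered bases in WT. Cyp2b9, expressed mainly in female mouse liver, had 3 YAP regions with 1416 bases. They lay inside the gene, at chr7:26174168-26174456, chr7:26174724-26175083 and chr7:26176887-26177653. Cyp2a22 had 1 YAP region, chr7:26938323-26939376, of 1054 bp, which ended just inside its start site. Cyp4a31, a fatty acid hydroxylase gene, had 1 YAP region, chr4:115563338-115564594, of 1257 bp. This region crossed the lower-coordinate bound of the gene, with 968 bp inside it. No strand or start site was listed for Cyp4a31. Cyp2a12, the other covered Cyp2a gene, had 2795 bases in WT and 3402 in YAP, whereas Cyp2a4 and Cyp2a5 had none in either list. None of these 3 differences held in each of 8 other ways of processing, as given in the closing section.

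The group of fatty acid enzymes was made of family 4 with Cyp2j and Cyp2u1 from family 2. Of its 28 genes 17 were covered, 13 with fewer bases in YAP and 4 with more, 2 of them past 2-fold downward and 1 upward, and the median log2 difference was -0.16. Cyp4b1 had 1558 bases in 4 WT regions and none in YAP. Cyp4a32 had 1883 and 486 bases, next to Cyp4a31 with its opposite difference, so the Cyp4a subfamily as a whole held 2607 bases in WT and 2237 in YAP. Cyp4a10 (317 and 0 bases) and Cyp4a14 (407 and 494 bases), both classical targets of the fatty acid receptor Ppara, had little H3K4me2 in either list, and that of Cyp4a14 lay in its flanks. The 9 Cyp4f genes, which include leukotriene hydroxylases, held 15134 bases in WT and 14192 in YAP, in 17 regions each, a ratio of 0.938. Cyp4f14 (2440 and 3091 bases) and Cyp4f16 (351 and 620) had more in YAP, while Cyp4f13 (4519 and 4007), Cyp4f15 (3444 and 3089) and Cyp4f17 (3078 and 2390) had fewer. Cyp4v3 had 6977 and 5071 bases, Cyp2u1 4826 and 3062, and Cyp2j5, an arachidonic acid epoxygenase, 5034 and 4096.

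Genes of retinoid and vitamin D metabolism mostly had more bases in YAP, and none passed 2-fold. Of 6 genes 5 were covered, 4 of them with more bases in YAP, and the group held 11419 bases in WT and 15504 in YAP. Cyp26b1 had 2974 and 5188 bases, Cyp26a1 4828 and 6484, and Cyp26c1 3265 and 3590; the 3 encode hydroxylases that inactivate retinoic acid. All covered bases of Cyp26c1 belong to the region that reaches from upstream into Cyp26a1, and lie outside the Cyp26c1 gene body, so these are not separate differences, and the group's sum counts them once. Cyp27b1, which activates vitamin D, had 1194 and 1591 bases, of which all in WT and most in YAP lay in its flanks within the neighbouring genes Mettl1 and Marchf9, and Cyp2r1, the hepatic vitamin D hydroxylase, 2423 and 2241. Cyp24a1, which degrades vitamin D, had none. Of the 3 sterol enzymes, Cyp39a1, an oxysterol hydroxylase, had 4625 and 6921 bases, Cyp51, the lanosterol demethylase, 3304 and 3143, and Cyp46a1, the cholesterol hydroxylase of brain, 1669 and 1433. Of 6 steroid hormone enzymes only Cyp17a1 (1419 and 1000 bases) and Cyp21a1 (289 and 0 bases, in its flanks) were covered, while Cyp11a1, Cyp11b1, Cyp11b2 and aromatase (Cyp19a1) had none. Cyp20a1, for which no role is assigned here, had 3289 and 2668 bases.

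Paralog clusters were formed from members at most 200 kb apart. The 12 clusters held 74 genes, and 21 genes lay outside. Fewer covered bases in YAP were found in 8 of the 12 clusters. The Cyp2c cluster of chromosome 19, with 14 genes over 1180 kb, had 25990 bases in WT against 10334 in YAP, or a ratio of 0.398. Its outer neighbours Hells (6562 and 4713 bases) and Pdlim1 (7392 and 4120 bases) also had fewer in YAP but stayed within 2-fold. The Cyp2d cluster of chromosome 15 held 23772 and 12067 bases, and with the bases between its genes 47291 and 23697. The Cyp3a cluster of chromosome 5, with 8 genes over 770 kb, had 6382 and 3699 bases, all of them at Cyp3a25. The Cyp4x, Cyp4a and Cyp4b cluster of chromosome 4 went from 4165 to 2237 bases, whereas Pdzk1ip1, beside it, went from 1562 to 5941. More bases in YAP were found in 3 clusters. The Cyp26 pair had 4828 and 6484 bases, the Cyp2s, Cyp2b and Cyp2a cluster of chromosome 7 had 0 and 1416, and the pair Cyp4f14 and Cyp4f13 had 6959 and 7098. The Cyp11b pair had none. Clustered and single genes had the same median log2 difference of -0.31, with ratios of 0.660 and 0.755. Clusters held 41 of the 57 covered genes and 11 of the 12 genes past 2-fold downward, 8 of them Cyp2c or Cyp2d genes. Around these 12 genes, 10 different neighbours with H3K4me2 had a median log2 difference of -0.15, and 1 of them, Pdzk1ip1, passed 2-fold.

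**Figure D3:**
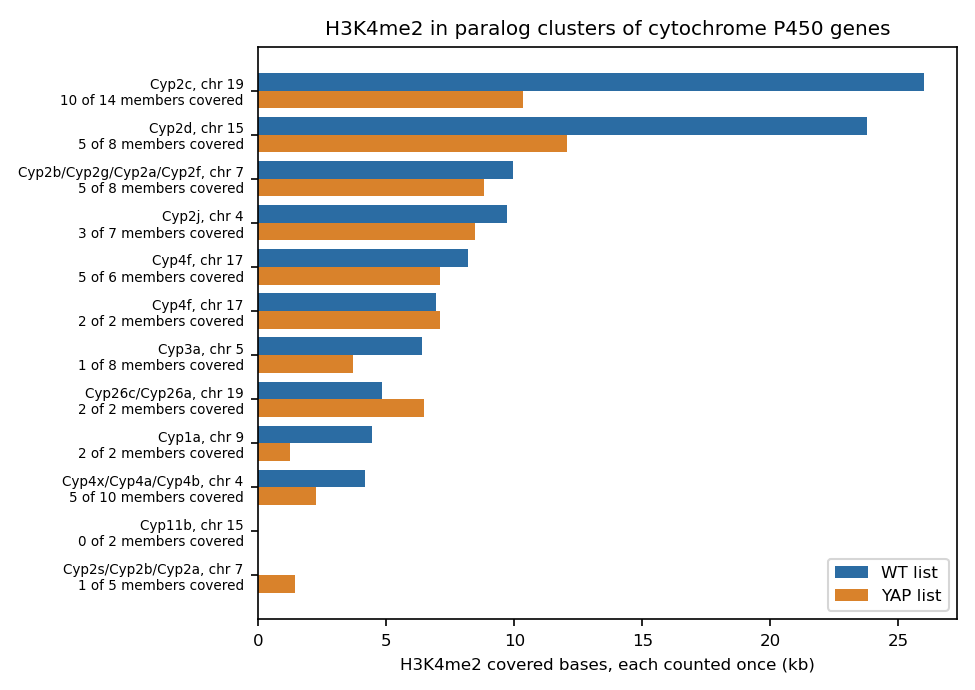
H3K4me2-covered bases (kb, horizontal axis, each base counted once) in the member windows of the 12 paralog clusters, for the WT list (blue) and the YAP list (orange). The Cyp2c and Cyp2d clusters hold the most covered bases in WT, 25990 and 23772, and have 10334 and 12067 in YAP.

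Of the 95 genes, 38 had no H3K4me2 region in either list. Of these, 10 had a promoter at least 90% identical to that of another member, 8 one between 70% and 90%, 12 one under 70%, and 8 had none in the promoter table. Promoters of 300 bases, 250 before and 50 after the start site, were matched for 75 of the 95 genes and aligned to one another. The closest other member promoter was 58.3% to 99.3% identical, with a median of 64.3%. At 90% identity or more there were 13 genes, of which 3 were covered by H3K4me2 (Cyp2b9, Cyp2c68 and Cyp3a25). In that class the uncovered genes Cyp2a4, Cyp2b13, Cyp2c69, Cyp3a16, Cyp3a41a, Cyp3a41b and Cyp3a44 are on the female-biased list below, as is the covered Cyp2b9. Cyp2a5, Cyp3a57 and Cyp3a59 are uncovered and not on it. Promoter identity and sex bias thus overlap here, and the part of either in the empty windows was not tested. Between 70% and 90% there were 20 genes, of which 12 were covered, and under 70% there were 42, of which 30 were covered. Median WT coverage in these 3 classes was 0, 269.5 and 1776 bases. Cyp2b9 and Cyp2b13 shared 99.3% of bases and an unbroken run of 196, Cyp3a41a and Cyp3a41b 98.3% and a run of 221, and Cyp2a4 and Cyp2a5 98.0% and a run of 111. Reads that fall within such runs have more than one place in the genome, and how these were treated is not given in the sources used here, so an empty list at these genes does not show that the mark was absent. The Cyp2b9 regions lie past its promoter, where identity with Cyp2b13 was not measured, so their placement is uncertain too. The closest member promoter shared 61.0% of bases with that of Cyp2e1, 61.7% with Cyp1a2, 68.0% with Cyp2d40 and 79.0% with Cyp2c29. Only the 300-base promoters were compared. The sequences of the H3K4me2 regions, many of them past the start site, were not, so how uniquely reads map there was not tested. Of the 12 genes past 2-fold downward, 6 were in the class under 70%, 5 in the class from 70% to 90% and 1 (Cyp2c54) had no promoter in the table.

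**Figure D4:**
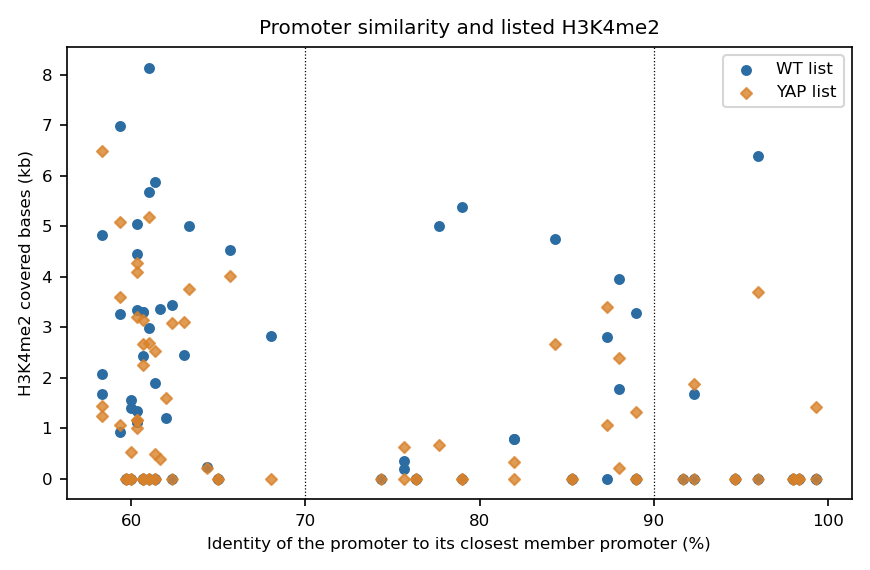
H3K4me2-covered bases (kb, vertical axis) in the WT list (blue circles) and the YAP list (orange diamonds) against the identity of each gene's promoter to the closest other P450 promoter (%, horizontal axis), for 75 genes, with dotted lines at 70% and 90%. To the right of 90%, 3 of 13 genes have any covered base, and to the left of 70%, 30 of 42 do.

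Start sites were known for the same 75 genes. H3K4me2 lay within 1 kb of the start site in both genotypes at 29 of them and in neither at 38. It was there in WT only at 5 of 75 (6.67%), namely Cyp2c29, Cyp2c38, Cyp2d40, Cyp2e1 and Cyp4b1, where 1.25% of 17492 genes had it in WT only. In YAP only it was there at 3 (4.0%), Cyp27b1, Cyp2a22 and Cyp2b9, where the share of all genes was 2.06%. Averaged over the 75 genes, coverage in WT was highest 500 to 750 bp after the start site, at 37.1% of bases, where YAP had 30.8%. At the 11 genes past 2-fold downward that have a start site, WT coverage peaked at 85.2% of bases 1000 to 1250 bp after it, where YAP had 18.2%. In YAP the highest share at these 11 genes was 27.0%, 250 to 500 bp after the start site. These 11 genes were chosen for having fewer covered bases, so the lower YAP line is no finding of its own.

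**Figure D5:**
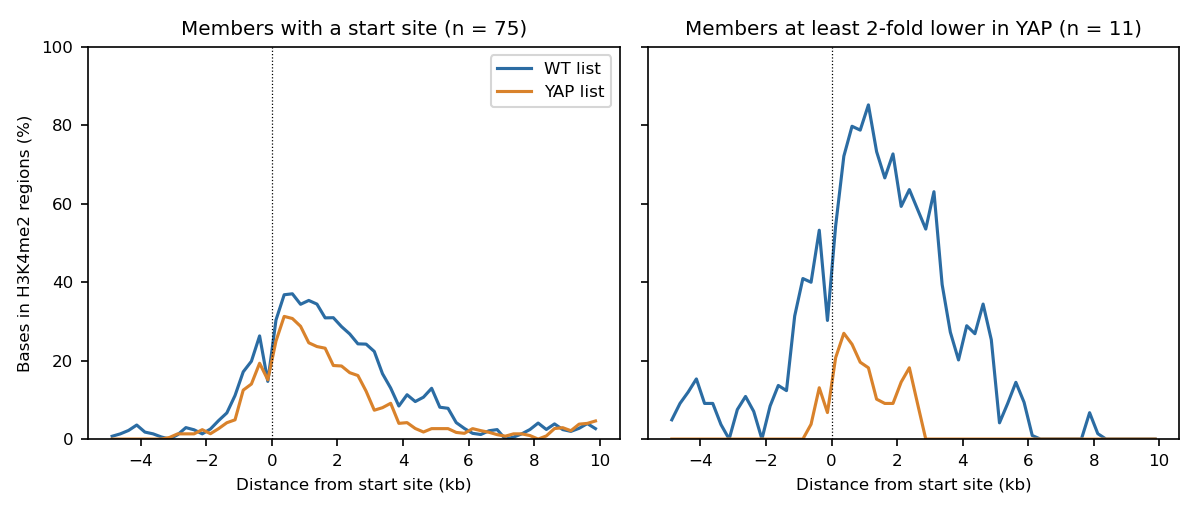
Share of bases in H3K4me2 regions (%, vertical axis) by distance from the start site (kb, horizontal axis, positive into the gene), in bins of 250 bp, for the WT list (blue) and the YAP list (orange), over 75 P450 genes (left) and the 11 genes with at least 2-fold fewer bases in YAP (right). On the right, the WT line reaches 85.2% and the YAP line 27.0%.

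TATAAA, counted on both strands, was in the 300-base promoters of 30 of 75 P450 genes (40.0%) and in 13.3% of 17492 promoters. It was in 9 of the 11 genes past 2-fold downward that have a promoter in the table. In the sequences above it begins 31 bases before the start site at Cyp2e1 (position -31), at position -29 at Cyp1a2, -28 at Cyp2a22, -19 at Cyp2c29 and -91 at Cyp2d40. The C/EBP letters TTGCNNAA were in 21.3% of P450 promoters and 10.1% of all, the nuclear receptor motif AGGTCA in 26.7% and 14.5%, the Ah receptor core GCGTG in 22.7% and 38.4%, and the TEAD letters GGAATG in 14.7% and 13.4%. Among the 11 genes, TTGCNNAA was found in 2, AGGTCA in 2, GCGTG in 0 and GGAATG in 3. No motif is contained in another. Cyp2b9 and Cyp2b13 hold the same matches at the same positions, C/EBP at -180, the nuclear receptor motif at -138 and TEAD at -101. A match is a run of letters and not a bound site.

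LSD1 was listed at 12 of the 95 P450 genes. It was in YAP only at 8 genes (8.42%), against 8.08% of all genes, in both lists at 4 (4.21%), against 3.05%, and in WT only at 0, against 2.86%. The share of P450 genes with LSD1 in YAP only was thus near that of all genes. None of the 12 genes with at least 2-fold fewer H3K4me2 bases had an LSD1 region in either list. With LSD1 at only 12 of 95 P450 genes, a set of 12 is too small to set these genes apart. The share among all genes past 2-fold downward was not computed. The median log2 difference in H3K4me2 was -0.42 at the 7 covered genes with LSD1 in YAP only, -0.13 at the 4 with LSD1 in both and -0.31 at the 46 with none.

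At the genes with LSD1 in YAP only, 4 of the regions lay at or close before or after a start site. At Cyp2a22 the region chr7:26938999-26939398 overlapped the YAP-only H3K4me2 region. At Cyp4f14, chr17:32917131-32917530 lay on the start site, on H3K4me2 listed in YAP and not in WT. At Cyp4v3, chr8:45333208-45333607 lay on H3K4me2 of both genotypes, and it also falls in the window of the neighbouring gene Fam149a. At Cyp3a59, whose promoter is 96.0% identical to that of Cyp3a25, chr5:146078659-146079058 had no H3K4me2. The other 4 regions lay inside the genes, of which Cyp2c23 and Cyp2u1 have no listed start site. These regions were chr7:27128913-27129516 at Cyp2f2, on H3K4me2 listed in YAP only, and chr19:44027510-44027909 at Cyp2c23, on H3K4me2 of both genotypes. The last 2, chr3:131295500-131295899 at Cyp2u1 and chr5:4083569-4083968 at Cyp51, were without H3K4me2. The region at Cyp51 also lies in the window of Akap9.

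Of the 4 genes with LSD1 in both lists, 2 had it at the same place. At Cyp4f13 the WT region chr17:32924790-32925185 overlapped the YAP region chr17:32924685-32925084, on H3K4me2, and YAP had a second region at chr17:32935529-32935928. At Cyp4f39 the regions chr17:32483220-32483615 (WT) and chr17:32483208-32483607 (YAP) overlapped, with no H3K4me2. At Cyp1a1 the WT region chr9:57707958-57708602 lay past the end of the gene in the window of Edc3, and the YAP region chr9:57696460-57696859 lay close to the start site, on H3K4me2 of both genotypes. At Cyp39a1 the WT region chr17:43684526-43684921 was inside the gene and the YAP region chr17:43666518-43666917 was in the flank, inside Slc25a27. In all, P450 windows held 4 LSD1 regions in WT and 13 in YAP, of which 2 were at the same place. That is 15.4% of the 13 YAP regions, against 17.2% of all YAP LSD1 regions. For WT the shares were 50.0% and 33.8%. The complete LSD1 lists, once overlapping regions were merged, hold 1500 and 2949 regions.

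H3K4me1 was listed at 2 of the 95 genes. Cyp2d22 had a 393 bp region in WT only, chr15:82382030-82382422 in its flank, on H3K4me2 of both genotypes. Cyp4f13 had a 213 bp region in YAP only, chr17:32935275-32935487 inside the gene, close to its second YAP LSD1 region. The shares of P450 genes were 1.05% for WT only, 1.05% for YAP only and 0 for both, against 3.17%, 4.98% and 6.33% of all genes. These lists are short, with 5905 and 6274 regions, so most genes have no H3K4me1 region in them.

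Pericentral P450 genes, a list of 8, were covered at 6. All 6 had fewer bases in YAP and 5 passed 2-fold, against 59.1% and 2.25% of all covered genes. Their sums were 25369 bases in WT and 3381 in YAP. They are Cyp2e1, Cyp1a2, Cyp2c29, Cyp2c37, Cyp2c54 and Cyp2c50, the last within 2-fold, while Cyp2a5 and Cyp3a11 had none in either list. The 5 are part of the 12 P450 genes past 2-fold given above, and the Cyp2c genes lie in the same cluster. The list was chosen with earlier results of these data known, so it is no separate finding. Cyp2f2, the 1 periportal gene listed, also had fewer bases, as given above. Of 10 female-biased genes 2 were covered, Cyp2b9 with more bases in YAP and Cyp17a1 with fewer, and of 3 male-biased genes 1 was covered, Cyp2d9 with fewer. The sex of the mice is not labelled. Chromosome Y held 9 H3K4me2 regions in WT and 12 in YAP, and Xist had none in either list. Ddx3y, Uty, Kdm5d and Eif2s3y, on chromosome Y, were covered in both lists. Both lists thus include chromatin from male mice, while the sex of each replicate is not given.

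Few partners and regulators of the P450 enzymes passed 2-fold, though most had fewer bases in YAP. Of 7 electron transfer genes 6 had fewer H3K4me2 bases in YAP and none passed 2-fold, with a median log2 difference of -0.37. The reductase Por, which supplies electrons to microsomal P450 enzymes, had 8171 and 4413 bases, Cyb5a, cytochrome b5, had 20445 and 10628, and both had LSD1 in YAP only. Of 12 heme genes 9 had fewer bases and none passed 2-fold. Alas1, the rate-limiting enzyme of heme synthesis, had 10077 and 6671 bases. Of 22 regulators 20 had fewer bases, 1 past 2-fold in each direction. Nr1i3, the receptor CAR that drives Cyp2b and Cyp2c genes, had 5853 and 2147 bases with LSD1 in YAP only, and Cux2, a repressor with female-biased expression, had 2085 and 6828. Of the 4 bile acid P450 genes left out above, all had fewer bases and Cyp7a1, the rate-limiting enzyme of bile acid synthesis, passed 2-fold with 6919 and 2667.

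The liver is a mixture of cells, and in such samples fewer hepatocytes and less mark per hepatocyte cannot be told apart. All 8 hepatocyte markers had fewer H3K4me2 bases in YAP, none past 2-fold, with sums of 72677 and 56372. Their median log2 difference was -0.31, the same as that of the P450 genes. Of the 57 covered P450 genes, 12 passed 2-fold downward and 3 upward. The 8 markers are too few for their share past 2-fold to be set against this. All 5 macrophage markers had more, 4 past 2-fold, with sums of 5152 and 13335, and Adgre1, Clec4f and Csf1r were at 0 in WT. Of 5 cholangiocyte markers 3 were covered, Spp1 (619 and 3746 bases), Sox9 (2902 and 3754) and Epcam (1572 and 1549), so most of the rise of their sum from 5093 to 9049 was at Spp1, and the defining genes Krt7 and Krt19 were at 0 in both lists. Endothelial markers (4 of 5 covered, 3662 and 6648 bases) and stellate markers (2 of 5 covered, 406 and 841) had more in YAP. The part of cell composition in the P450 differences was not tested.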

How the data were processed

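The 14 libraries fall into 8 groups: 12 antibody libraries and 2 inputs. Build and tools, from the submitters' processing notes, were mm10, deepTools 3.3.0, bedtools 2.26.0, Picard 1.126, SAMtools 1.7, BWA and Trimmomatic 0.39. How peaks were called, and how reads with several matches were treated, is not given in the sources used here. Micrococcal nuclease cut the chromatin, per the labels' protocols, so regions can follow nucleosomes. The deposited score ranked regions within a list, and the signal deposited by the authors broke ties; neither compared genotypes.

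Overlapping regions within a list were merged and intersected, by at least 1 bp, with RefSeq gene bounds of GRCm38.p6 (Python 3.11.15, pandas 2.3.3). That table has no exons; start sites came from the promoter table, with the first listed start per gene. Promoters were aligned globally with Biopython 1.88. Overlaps were checked against bedtools 2.31.1, equal in 2000 of 2000 simulated windows, and 200 of 200 planted losses were found. Members and lists were chosen with earlier results of these data known. Named genes were those with LSD1 or H3K4me1, the most covered bases in WT, the largest falls and rises, the leading members of each subfamily, the role lists and up to 4 genes per other list. The lists of lymphocyte markers and of other oxidation and hydrolysis enzymes are not reported here.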

Additional observations from a re-analysis of the deposited data

How the results depend on the processing

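No paired analysis was possible because 1 list stands for both replicates of each group, and for the same reason no replicate could be left out. The 12 P450 genes with at least 2-fold fewer H3K4me2 bases in YAP became 5 when 2000 bases were added before the ratio, where 0.489% of all covered genes passed; the 3 with more became 0. This alternative shrinks every ratio by its construction. Under the other 7 alternatives the count of genes with fewer ran from 8 to 18. The 8 were of 51 covered gene bodies without flanks, where 2.56% of all covered genes passed. The 18 were of 57 with 100 bases added, where 4.36% of all passed. Cyp2e1, Cyp2c29, Cyp2d40, Cyp2c67 and Cyp1a2 had at least 2-fold fewer bases under all 8. Cyp2d9 did so under 5, and Cyp2c38 and Cyp2d26 under 4. Cyp2a22 passed upward under 7, Cyp2b9 and Cyp4a31 under 6.

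LSD1 in YAP only fell from 8 genes to 3 with the higher-scoring 50% of regions, and to 3 with equal numbers of regions in both lists, where WT-only genes came to 2; the YAP list is longer, and both settings use fewer of its regions. H3K4me1 in YAP only was found at 2 genes within 10 kb and at 0 with the higher-scoring 50% of regions. Fewer H3K4me2 bases were found in 8 of 12 clusters, in 8 or 9 of 12 under 5 alternatives, and in 7 of 10 with members up to 500 kb apart joined. None of the 15 genes past 2-fold reversed direction under the 8 alternatives. However, 5 of them had no bases in YAP and 3 none in WT, and most alternatives could not reverse such genes. Cyp2b9, Cyp4a31, Cyp4b1 and Cyp2c38 reached a log2 difference of 0.0 under at least 1 alternative. Of the other covered genes, whose direction was compared only without flanks, Cyp2c68 reversed. Read depth is unknown, so the absence of a region is not the absence of the mark.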
